A study of Mus musculus with 4 samples.

Results

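Genes that mark or are used by tumour-associated macrophages were examined in RNA-Seq libraries of CD4+ T cells taken from lung tumors. The 10 genes were *Adgre1*, *Csf1r*, *Mertk*, *Mrc1*, *Arg1*, *Nos2*, *Spp1*, *Trem2*, *Apoe* and *Gpnmb*, taken by symbol from a given list. That list was drawn up with earlier results of these data known. Each file lists 25239 gene symbols, and all 10 were among them and among the 13919 genes that passed the filter on low counts. The groups held 2 WT and 2 CD4/ALK4-KO libraries, as labelled, all from C57BL/6 background mice inoculated intravenously with LLC-OVA cells, which are Lewis lung carcinoma cells made to express ovalbumin. CD4/ALK4-KO mice carried CD4CreERT2+/- and Acvr1bfl/fl and received 5 doses of tamoxifen at 75 mg/kg, which switches on a Cre recombinase driven by the mouse *Cd4* promoter and thereby removes *Acvr1b*, the gene of the activin type I receptor ALK4. WT mice were their littermates, and whether they received tamoxifen is not given in the sources used here. The methods give male mice of 8 to 10 weeks, and the labels give tumor excision 18 to 22 days after inoculation, a later window than the one in the methods. Leukocytes were taken at the interface of a 40% and 80% Percoll gradient before CD4+ T cells were isolated with a kit, so no step selected macrophages, and the Cre driver is that of a T cell gene. Nothing states whether a library held the cells of 1 mouse or of several, and p-values measure only the spread between these 4 libraries. A fit that leaves out 1 library has 1 left in that group, so its calls rest on the spread of the other group alone.

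Macrophages in a tumor arise from blood monocytes and from cells resident in the tissue, and many of them depend on signals through the receptor encoded by *Csf1r*. In tumors they are known for taking up dying cells and lipid, for remodelling matrix and for using arginine in ways that restrain T cells. The list covers these roles, with surface identity (*Adgre1*, *Csf1r*), uptake (*Mertk*, *Mrc1*), arginine use (*Arg1*, *Nos2*), and matrix and lipid handling (*Spp1*, *Trem2*, *Apoe*, *Gpnmb*).

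Total counts were 13869889 and 13943237 in the WT libraries and 11959487 and 11823908 in the CD4/ALK4-KO libraries. The targeted gene, *Acvr1b*, had 426 and 342 counts in WT and 322 and 445 in CD4/ALK4-KO. Its log2 fold change of 0.16, with an SE (standard error) of 0.24 and an adjusted p = 0.66, did not separate the genotypes, and directions are given between libraries as labelled. Counts cover the whole gene, so a change limited to the deleted stretch cannot be seen. The 13 T cell markers were present in every library but their summed level differed, with 544 and 492 CPM (counts scaled to library size, with edgeR's TMM normalization) in WT against 2776 and 2734 CPM in CD4/ALK4-KO. All 13 were called higher in CD4/ALK4-KO, among them *Cd4* with a log2 fold change of 2.62 (adjusted p = 2.8e-08). The part of this difference in T cell RNA in the values of the macrophage genes was not tested. In bulk RNA, fewer cells of a type and less RNA per cell cannot be told apart.

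Among the 10 genes, *Spp1* fell by 1.46 on the log2 scale in the libraries labelled CD4/ALK4-KO, and *Csf1r* rose by 0.70. The other 8 did not pass the test. Thus 1 of 10 was called lower, where 15.4% of all genes tested were lower, and 1 of 10 was called higher, where 17.4% of all genes tested were higher (edgeR quasi-likelihood test, adjusted p under 0.05). With 10 genes, counts this small cannot show a difference from either share. The median log2 fold change of the 10 was -0.42, against -0.0082 over all genes tested, and it was -0.18 without WT replicate 1. In 5 of the 10 (*Adgre1*, *Mertk*, *Mrc1*, *Nos2* and *Spp1*) both CD4/ALK4-KO libraries lay below both WT libraries, a pattern found in 34.0% of all genes tested. Both CD4/ALK4-KO libraries lay above both WT libraries for *Csf1r* alone of the 10, and for 32.7% of all genes tested. For *Arg1*, *Trem2*, *Apoe* and *Gpnmb* the groups overlapped.

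**Figure D1:**
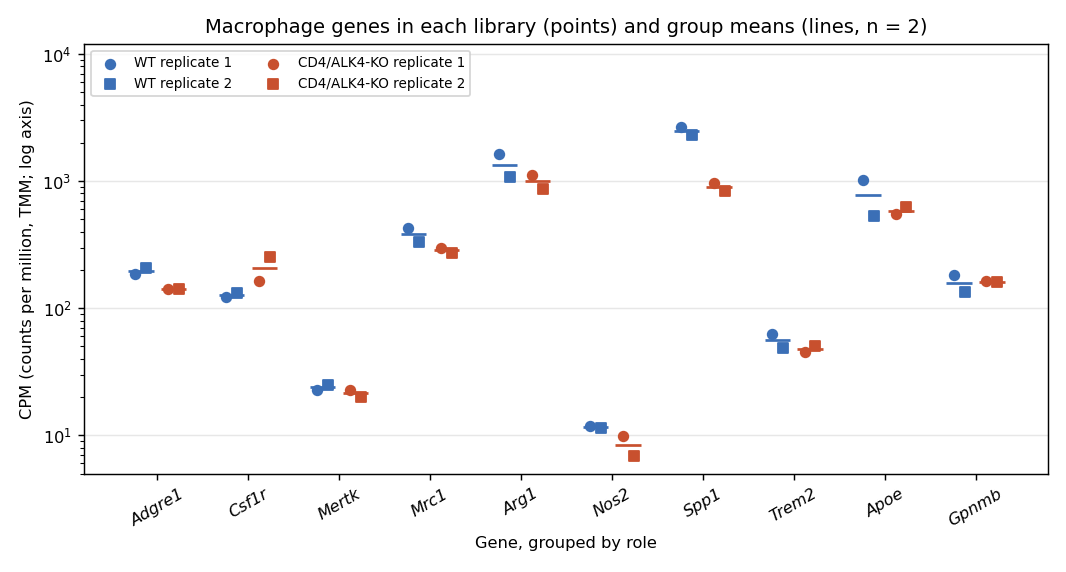
Level of each of the 10 macrophage genes in each library, in CPM on a log axis, with points for libraries and short lines for the means of the 2 libraries of a group. *Spp1* is the highest gene in WT at 2485 CPM and drops to 904.1 CPM in CD4/ALK4-KO, while *Csf1r* moves up from 127.3 to 207.4 CPM and the other 8 genes did not pass the test.

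Together the 10 genes took 0.625% and 0.467% of all counts in the WT libraries (95% Wilson intervals 0.6212% to 0.6295% and 0.4633% to 0.4704%). In the CD4/ALK4-KO libraries they took 0.346% and 0.338% (0.3428% to 0.3495% and 0.335% to 0.3417%), below both WT libraries. These intervals cover counting error only. *Spp1*, *Arg1* and *Apoe* supplied most of these counts, 83.9% and 81.5% of them in WT and 75.7% and 72.1% in CD4/ALK4-KO. Of all counts, *Spp1* alone took 0.263% and 0.224% in WT and 0.0961% and 0.0880% in CD4/ALK4-KO. *Arg1* took 0.1602% and 0.1048% in WT and 0.1113% and 0.09116% in CD4/ALK4-KO. *Apoe* took 0.1016% and 0.0516% in WT and 0.05477% and 0.06485% in CD4/ALK4-KO. The shares of *Arg1* and *Apoe* overlapped between the groups, so the lower total does not show that genes other than *Spp1* fell. Within the 10 genes *Spp1* made up 42.0% and 48.0% of the counts in WT and 27.75% and 26.02% in CD4/ALK4-KO. The share held by *Csf1r* went the other way, from 1.94% and 2.74% in WT to 4.68% and 7.78% in CD4/ALK4-KO. Such shares are tied to each other, so that a fall in one raises the rest, and they were not tested.

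Surface identity was read from *Adgre1* and *Csf1r*, of which only *Csf1r* passed the test. *Csf1r* (chromosome 18, 61100598 to 61132149, plus strand, GRCm38) encodes the receptor for CSF1 and IL-34, on which the survival of many macrophages depends. It had 1679 and 1786 counts in WT and 1936 and 3113 in CD4/ALK4-KO, that is 122.5 and 132 CPM against 162.6 and 252.1 CPM. Both CD4/ALK4-KO libraries were higher, but they lay further from each other than the lower of them lay from WT. The mean was 127.3 ± 6.73 CPM in WT and 207.4 ± 63.3 CPM in CD4/ALK4-KO (SD, n = 2 each), a rise of 1.63-fold with a log2 fold change of 0.70 (SE 0.23, adjusted p = 0.0222). The call did not hold without CD4/ALK4-KO replicate 2, where the log2 fold change was 0.35 (adjusted p = 0.165), nor without WT replicate 1 (0.65, adjusted p = 0.255) or WT replicate 2 (0.75, adjusted p = 0.143), and among the 12 alternatives in which it was higher the adjusted p ranged from 1.9e-06 to 0.255. When libraries were scaled to 4 T cell receptor complex genes, which shifts all genes by a median of -2.35, the log2 fold change of *Csf1r* was -1.64 (adjusted p = 9.68e-11), the smallest fall among the 10 genes on that scale. Scaled to 7 phagocyte genes, it was 0.66 (adjusted p = 0.0369).

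*Adgre1* (chromosome 17, 57358691 to 57483527, plus strand) encodes F4/80, the adhesion receptor commonly used to stain mouse macrophages. Its counts were 2570 and 2781 in WT and 1676 and 1755 in CD4/ALK4-KO, or 187.5 and 205.6 against 140.8 and 142.1 CPM, so the groups did not overlap. The mean was 196.6 ± 12.8 CPM in WT and 141.5 ± 0.95 CPM in CD4/ALK4-KO, with -0.47 as its log2 fold change (SE 0.21, adjusted p = 0.0893), which did not pass the test. It passed under upper quartile scaling (-0.54), and the log2 fold change was -0.49 when CD4/ALK4-KO replicate 2 was left out. Per kilobase of exon the ratio of *Adgre1* to *Csf1r*, which no library scaling affects, was 2.73 and 2.78 in WT and 1.54 and 1.00 in CD4/ALK4-KO. Its log2 difference was -1.14, with an exact permutation p of 0.333, the smallest that 2 against 2 libraries can give.

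A list of growth factor genes around this receptor holds its 2 ligands, the GM-CSF receptor chains and *Irf8*. Of its 6 tested genes, 2 were higher and 2 lower, beside 17.4% and 15.4% of all genes tested. Both lower genes encode the ligands of the receptor, and neither of the higher ones does. *Csf1* had 913 and 665 counts in WT and 311 and 566 in CD4/ALK4-KO (log2 fold change -0.69, SE 0.26, adjusted p = 0.043). *Il34* had 136 and 178 counts in WT and 45 and 89 in CD4/ALK4-KO (log2 fold change -1.07, SE 0.35, adjusted p = 0.0216). *Csf2rb*, the signalling chain shared by the receptors for GM-CSF, IL-3 and IL-5, rose with a log2 fold change of 0.91 (SE 0.24, adjusted p = 0.0058). *Irf8*, a transcription factor of the monocyte and dendritic cell lineages, rose by 0.64 (SE 0.23, adjusted p = 0.0358). Without CD4/ALK4-KO replicate 1, neither ligand was called, and without WT replicate 2 none of these 4 genes was.

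Uptake of dying cells and of glycoproteins was read from *Mertk* and *Mrc1*. *Mertk* (chromosome 2, 128698956 to 128802894, plus strand) encodes a receptor tyrosine kinase that binds dying cells through the bridging proteins GAS6 and protein S. It had 311 and 338 counts in WT and 269 and 249 in CD4/ALK4-KO, or 22.69 and 24.99 against 22.6 and 20.17 CPM. The groups did not overlap, but the nearest WT and CD4/ALK4-KO libraries were almost level. Its log2 fold change was -0.16 (SE 0.25, adjusted p = 0.682).

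*Mrc1* (chromosome 2, 14229392 to 14332057, plus strand) encodes CD206, the mannose receptor that marks alternatively activated and tissue-resident macrophages. It had 5895 and 4509 counts in WT and 3560 and 3352 in CD4/ALK4-KO. The mean was 381.7 ± 68.5 CPM in WT and 285.3 ± 19.5 CPM in CD4/ALK4-KO (log2 fold change -0.42, SE 0.22, adjusted p = 0.151). The groups did not overlap, though the difference did not pass the test. Without CD4/ALK4-KO replicate 1 the log2 fold change was -0.46.

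The wider list of genes for the uptake of dying cells, which leaves *Mertk* out, had a median log2 fold change of -0.67. By edgeR, 7 of 10 were lower and 0 higher in CD4/ALK4-KO, beside 15.4% and 17.4% of all genes tested. At an unadjusted p under 0.05 the counts were also 7 and 0, and with DESeq2 they were 6 and 0. *Axl*, a receptor of the same family as *Mertk*, had 5200 and 4257 counts in WT and 1902 and 2249 in CD4/ALK4-KO, with -1.02 as its log2 fold change (SE 0.22, adjusted p = 0.00119). *Tyro3*, the remaining receptor of that family, fell by 1.23 (adjusted p = 0.0263) from 163 and 87 to 27 and 68 counts. *Itgb5*, an integrin chain that binds the bridging protein MFG-E8, fell by 1.05 (adjusted p = 0.000779), and *Cd36*, a scavenger receptor, fell by 0.68 (adjusted p = 0.0209). The 3 genes not called were *Timd4*, *Stab1* and *Itgav*. The count of 7 dropped to 1 when WT replicate 1 was left out and to 3 when WT replicate 2 was, and *Itgb5* was called in both of these fits. Fibroblasts also express *Axl*, *Gas6* and *Itgb5*, and the 8 fibroblast markers had summed levels of 6726 and 7335 CPM in WT and 4791 and 3974 CPM in CD4/ALK4-KO, with 4 of 8 called lower and none higher. The part of fibroblast RNA in these values was not tested.

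Arginine use was compared through *Arg1* and *Nos2*, whose enzymes compete for the amino acid. *Arg1* (chromosome 10, 24915221 to 24927484, minus strand) encodes arginase 1, which splits arginine to ornithine and urea. It had 22221 and 14610 counts in WT and 13307 and 10779 in CD4/ALK4-KO. The 2 WT libraries differed from each other by more than WT replicate 2 did from CD4/ALK4-KO replicate 1, and the groups overlapped in CPM. The mean was 1351 ± 383 CPM in WT and 995.5 ± 173 CPM in CD4/ALK4-KO, with a log2 fold change of -0.44 (SE 0.22, adjusted p = 0.137). Leaving out CD4/ALK4-KO replicate 1 gave a log2 fold change of -0.60, and leaving out WT replicate 1 gave -0.13.

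*Nos2* (chromosome 11, 78920787 to 78960254, plus strand) encodes the inducible nitric oxide synthase of classically activated macrophages. It was the scarcest of the 10, with 161 and 155 counts in WT and 118 and 85 in CD4/ALK4-KO, and the groups did not overlap. Its log2 fold change was -0.47 (SE 0.31, adjusted p = 0.26). Per kilobase of exon, *Arg1* stood 273 and 187 times above *Nos2* in WT and 223 and 251 times above it in CD4/ALK4-KO. This ratio overlapped between the groups, with a log2 difference of 0.068 and an exact permutation p of 1. Of the other arginine genes, 5 of 7 were tested (*Otc* was listed at 0 in every library) and 1 was called, *Slc7a2*, a transporter of cationic amino acids, which rose by 0.86 (adjusted p = 0.011) but was not called without WT replicate 1 or without CD4/ALK4-KO replicate 1. *Odc1*, which turns ornithine into polyamine, had 4529 and 4648 counts in WT and 2505 and 3195 in CD4/ALK4-KO (log2 fold change -0.52, adjusted p = 0.0704).

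**Figure D2:**
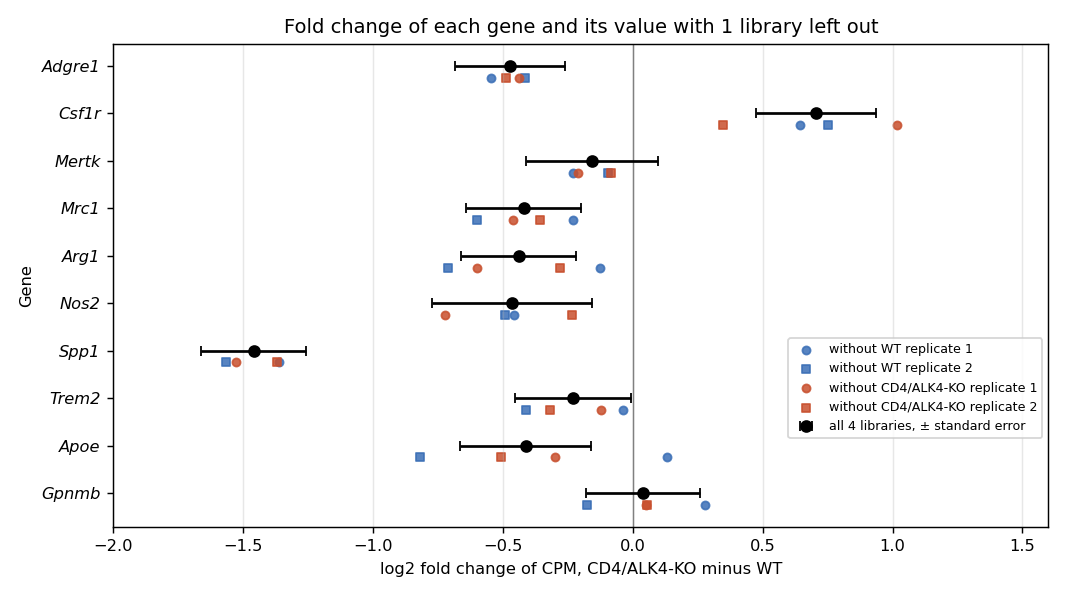
Log2 fold change of each gene, CD4/ALK4-KO minus WT, with black points and bars for all 4 libraries and their standard errors, and coloured points for the value with 1 library left out. *Spp1* stays between -1.57 and -1.36 whichever library is left out, *Csf1r* runs from 0.35 to 1.02, and *Apoe* crosses 0 without WT replicate 1.

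The lipid and matrix genes held the largest fall of the 10. *Spp1* (chromosome 5, 104435118 to 104441050, plus strand) encodes osteopontin, a secreted matrix protein that macrophages in tumors are known to make, as are fibroblasts and carcinoma cells. It had 36450 and 31264 counts in the WT libraries and 11488 and 10409 in the CD4/ALK4-KO libraries. The groups were far apart, and the replicates within each lay close together. In CPM the mean was 2485 ± 246.5 in WT and 904.1 ± 86.3 in CD4/ALK4-KO, 2.75-fold lower, with a log2 fold change of -1.46 (SE 0.20, adjusted p = 9.61e-06). Its log2 fold change was below 0 under all 13 alternatives. It was called lower with DESeq2 (-1.45, adjusted p = 5.5e-12) and, by edgeR, with the replicate number as a block (-1.46, adjusted p = 2.19e-05). Scaling to T cell receptor complex genes called all 10 genes lower, so its call says nothing particular to *Spp1*. Without each library in turn the log2 fold change ran from -1.57 to -1.36. Scaled to 7 phagocyte genes in place of all genes, it was -1.49 (adjusted p = 1.79e-05).

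The level of *Spp1* was also set against single macrophage genes, which removes the library scaling. Per kilobase of exon, *Spp1* stood 2.22 and 2.89 times above *Arg1* in WT and 1.17 and 1.31 times above it in CD4/ALK4-KO, and 76.1 and 61.3 times above *Csf1r* in WT against 20.8 and 11.7 times in CD4/ALK4-KO. Over *Cd68*, which encodes a lysosomal glycoprotein of macrophages, it stood 15.4 and 13.8 times higher in WT and 5.60 and 3.27 times higher in CD4/ALK4-KO. In each of these ratios both CD4/ALK4-KO libraries lay below both WT libraries, with log2 differences of -1.04, -2.13 and -1.77 and an exact permutation p of 0.333, the smallest possible here (0.385 adjusted over the 15 ratios computed). Of the 9 ratios to *Csf1r*, 8 lay lower in both CD4/ALK4-KO libraries than in both WT libraries, with log2 differences of -2.13 to -0.83, and that of *Gpnmb* overlapped. The ratio to *Csf1r* behaved in this way for 60.3% of all other genes tested, and the rise of *Csf1r* itself enters every such ratio. Epithelial markers had summed levels of 966.7 and 945.7 CPM in WT and 628.9 and 495 CPM in CD4/ALK4-KO, and 4 of the 8 were called lower and 2 higher. The airway gene *Scgb1a1* led this sum, with 414.7 and 437.1 CPM in WT and 335.5 and 178.7 CPM in CD4/ALK4-KO. The sum therefore does not stand for tumor RNA alone. The fibroblast markers are given above. The part of tumor or fibroblast RNA in the fall of *Spp1* was not tested.

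Promoter sequence was available for 6 of the 10 genes, in 9 windows from RefSeq (GRCm38.p6), each from 250 bases before to 50 after a start site. The window was searched on both strands for GAGGAA, the core of the box bound by the myeloid factor PU.1, and for TGAGTCA (AP-1), CACGTG (E-box) and TTCNNNGAA (STAT). GAGGAA lay in 5 of the 9 windows and in 28.3% of all 32851 promoters of the same length, and TGAGTCA in 1 of 9 and in 5.2% of all promoters. CACGTG and TTCNNNGAA lay in none of the 9, and in 7.15% and 8.3% of all promoters. The 150 bases before the start site are shown for *Spp1*, the gene that fell (chr5:104434961-104435110, plus strand), and for *Trem2*, a lipid receptor gene that was not called (chr17:48346251-48346400, plus strand). Capitals mark GAGGAA or, for a match on the opposite strand, its reverse complement, 113 bases before the start site in *Spp1* and 40 bases in *Trem2*. The gene that fell and the gene that was not called thus both hold this core in the window shown. *Spp1* has 2 windows, and the one not shown held no match. *Apoe* has 3 windows, so the 9 windows are not separate genes. A match of letters is a description only.
Spp1: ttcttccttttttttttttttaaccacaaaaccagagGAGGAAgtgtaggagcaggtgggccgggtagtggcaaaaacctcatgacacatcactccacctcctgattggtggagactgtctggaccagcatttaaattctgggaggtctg
Trem2: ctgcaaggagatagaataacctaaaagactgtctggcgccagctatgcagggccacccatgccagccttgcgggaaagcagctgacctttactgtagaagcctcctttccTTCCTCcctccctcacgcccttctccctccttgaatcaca

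*Trem2* (chromosome 17, 48346401 to 48354147, plus strand) encodes a lipid-sensing receptor of macrophages and microglia. It had 863 and 658 counts in WT and 535 and 620 in CD4/ALK4-KO. In CPM the groups overlapped, at 55.8 ± 10.1 in WT and 47.6 ± 3.73 in CD4/ALK4-KO, with a log2 fold change of -0.23 (SE 0.22, adjusted p = 0.462). *Apoe* (chromosome 7, 19696109 to 19699188, minus strand), which encodes the lipid carrier apolipoprotein E, had 14087 and 7195 counts in WT and 6550 and 7668 in CD4/ALK4-KO. WT replicate 1 alone stood high and the other 3 libraries lay together. The log2 fold change of *Apoe* was -0.41 (SE 0.25, adjusted p = 0.223), and 0.13 without WT replicate 1. Without WT replicate 2 it was -0.82, and without CD4/ALK4-KO replicate 2 it was -0.51. *Gpnmb* (chromosome 6, 49036546 to 49070929, plus strand) encodes a transmembrane glycoprotein of lysosome-rich macrophages. It had 2497 and 1799 counts in WT and 1954 and 1974 in CD4/ALK4-KO, so that both CD4/ALK4-KO libraries lay between the WT libraries. Its log2 fold change was 0.04 (SE 0.22, adjusted p = 0.911), and the sign turned with upper quartile scaling, with the T cell receptor scale and without WT replicate 2. Of these 4 genes, often listed together for lipid-laden macrophages, *Spp1* passed the test and the other 3 did not. The difference between genes was not tested.

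The remaining genes of lipid-associated macrophages divided in both directions. Of 14, 6 were lower and 3 higher, beside 15.4% and 17.4% of all genes tested, and their median log2 fold change was -0.11. The median was -0.36 without CD4/ALK4-KO replicate 2 and -0.25 without WT replicate 2, and without WT replicate 1 only 3 were lower and 1 higher. *Cd63*, a tetraspanin of late endosomes, went from 10144 and 9092 counts in WT to 2917 and 2800 in CD4/ALK4-KO (log2 fold change -1.58, SE 0.22, adjusted p = 8.06e-06). *Ctsl*, which encodes the protease cathepsin L, went from 31610 and 34446 to 11564 and 11005 counts (-1.38, SE 0.20, adjusted p = 1.52e-05). *Ctsd*, which encodes the lysosomal protease cathepsin D, had 15880 and 12252 counts in WT and 11328 and 14470 in CD4/ALK4-KO (log2 fold change 0.04, adjusted p = 0.906), and the lysosomal enzyme genes *Lipa* (0.05) and *Hexa* (0.23) were not called either. Of the 3 genes that rose, 2 encode exporters of cholesterol. *Abcg1* had 201 and 253 counts in WT and 568 and 847 in CD4/ALK4-KO (log2 fold change 1.80, SE 0.25, adjusted p = 8.98e-06), and *Abca1* had 1042 and 1205 against 2028 and 2136 (1.06, SE 0.21, adjusted p = 0.000567). *Lpl*, lipoprotein lipase, rose by 0.62 (adjusted p = 0.045). *Abca1* and *Lpl* were not called without WT replicate 1, and *Abcg1* was called without each library. *Cd63* and *Ctsl* are broadly expressed, also by fibroblasts and tumor cells.

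Levels can be compared between genes only per length, and for this CPM were divided by the summed exon length of each gene in GENCODE M21. In WT the order was *Spp1* at 1508 ± 149.6, *Arg1* at 606.3 ± 171.8 and *Apoe* at 364.8 ± 164.1 CPM per kilobase. These 3 stood apart from each other and from all that followed, since *Adgre1* came next at 60.7 ± 3.94. *Adgre1* and *Mrc1* (59.9 ± 10.8) overlapped, as did *Gpnmb* (24.2 ± 5.34) and *Csf1r* (22.0 ± 1.17), and below them came *Trem2* (11.3 ± 2.05), *Mertk* (5.50 ± 0.374) and *Nos2* (2.63 ± 0.0464). In CD4/ALK4-KO *Spp1* was again first, at 548.6 ± 52.4, then *Arg1* at 446.8 ± 77.7 and *Apoe* at 273.9 ± 23.4. *Mrc1* (44.8 ± 3.06), *Adgre1* (43.7 ± 0.293) and *Csf1r* (35.9 ± 10.96) then followed with overlapping neighbours. *Csf1r*, which overlapped *Gpnmb* in WT, stood above it (24.9 ± 0.464) in CD4/ALK4-KO, while *Trem2* (9.62 ± 0.754), *Mertk* (4.93 ± 0.397) and *Nos2* (1.90 ± 0.485) kept their places. The order depends on the length used. With the longest protein-coding transcript, *Trem2*, whose exons add up to 4946 bp against 1088 bp for that transcript, stood at 51.3 in WT and 43.7 in CD4/ALK4-KO, and in CD4/ALK4-KO *Arg1* (674) overlapped *Spp1* (599.9) and had the higher mean. With that length *Gpnmb* also stood apart above *Csf1r* in WT (42.58 against 27.07), and the 2 overlapped in CD4/ALK4-KO (43.78 and 44.12).

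Set among all 24321 genes with a length, *Spp1* ranked 13 and 19 in the WT libraries and 37 and 51 in the CD4/ALK4-KO libraries. *Arg1* ranked 47 and 92 in WT and 51 and 79 in CD4/ALK4-KO. *Lyz2*, which encodes the lysozyme of myeloid cells, ranked between 3 and 5 in every library. *Cd4* ranked 3739 and 4177 in WT and 642 and 522 in CD4/ALK4-KO. Thus *Spp1*, *Arg1* and *Apoe* ranked above *Cd4* in all 4 libraries labelled as CD4+ T cells. *Cd4* stood at 0.647 and 0.520 times the level of *Csf1r* in WT and at 2.70 and 1.86 times in CD4/ALK4-KO.

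**Figure D3:**
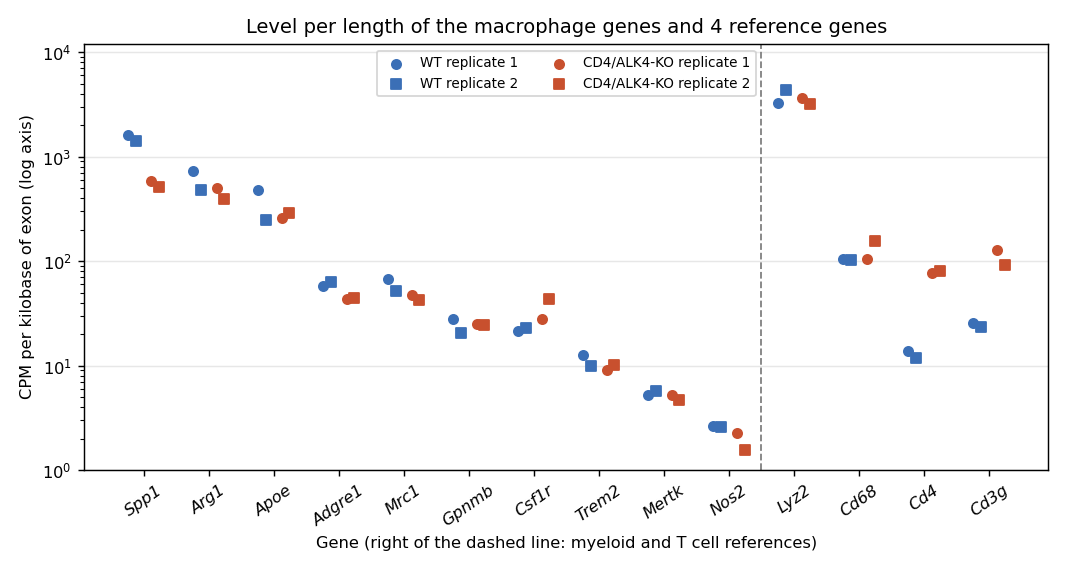
CPM per kilobase of exon on a log axis for the 10 genes, in the order of their WT means, and for 4 reference genes to the right of the dashed line, with a point for each library. *Lyz2* lies above all 10 genes in every library, and the T cell genes *Cd4* and *Cd3g* rise in CD4/ALK4-KO, *Cd4* from 12.8 to 78.6, while *Spp1* drops.

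Genes that define macrophages and monocytes generally were counted next. Of 15 such pan-phagocyte genes, 0 were called in either direction by edgeR, 1 was higher at an unadjusted p under 0.05 and 1 lower, and DESeq2 called 1 higher. These counts changed with single libraries, to 4 lower without CD4/ALK4-KO replicate 2, 2 higher without CD4/ALK4-KO replicate 1 and 1 lower without WT replicate 2. The median log2 fold change was -0.13, and it was 0.08 without CD4/ALK4-KO replicate 1 and 0.02 without WT replicate 1. Their summed level was 7575 and 8627 CPM in WT and 7619 and 7537 CPM in CD4/ALK4-KO, so the groups overlapped. *Lyz2* had 58626 and 76926 counts in WT and 56638 and 52193 in CD4/ALK4-KO (log2 fold change -0.15, adjusted p = 0.589), and *Itgam*, which encodes CD11b, had 6115 and 6576 against 7381 and 8560 (0.49, adjusted p = 0.0745). The summed level of the 10 macrophage genes was 6329 and 4812 CPM in WT and 3477 and 3240 CPM in CD4/ALK4-KO. Each sum is led by 1 gene and does not show how the others moved. *Spp1* alone gave 2660 and 2311 CPM in WT and 965.1 and 843.1 CPM in CD4/ALK4-KO. *Lyz2* gave 4278 and 5687 CPM of the pan-phagocyte sum in WT and 4758 and 4227 CPM in CD4/ALK4-KO.

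Genes of macrophage activation and of monocytes were counted in the same way, beside the 15.4% lower and 17.4% higher of all genes tested. In the list for alternative activation, 3 of 10 were lower and 1 was higher. *Cd163*, a haemoglobin scavenger receptor, fell by 1.02 (adjusted p = 0.00271) from 845 and 536 to 295 and 312 counts. *Folr2*, a folate receptor of resident macrophages, fell by 0.92 (adjusted p = 0.00471), and *Chil3*, a chitinase-like lectin, by 0.83 (adjusted p = 0.00754). *Cd163* and *Folr2* were not called without WT replicate 1, nor *Chil3* without WT replicate 2. *Egr2* rose by 1.23 (adjusted p = 0.0195) on 79 and 45 counts in WT and 78 and 183 in CD4/ALK4-KO, was not called without CD4/ALK4-KO replicate 2 or WT replicate 2, and is also expressed by T cells.

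In the list for inflammatory activation, 4 of 10 were higher and 0 lower by edgeR, with a median log2 fold change of 0.49. At an unadjusted p under 0.05 the counts were 6 and 0, and with DESeq2 3 and 0. *Tnf* rose by 1.34 (adjusted p = 0.00126), from 131 and 98 to 211 and 305 counts, and *Il12b*, a subunit of IL-12, by 0.85 (adjusted p = 0.035), from 97 and 108 to 184 and 144. T cells also make *Tnf*, and their markers rose in the same libraries. The most abundant genes of the list, *Il1b* (log2 fold change 0.51, adjusted p = 0.0781) and *Ptgs2* (-0.39, adjusted p = 0.16), were not called. Without WT replicate 1 or WT replicate 2 the count was 1 of 10, *Tnf* in both.

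Of 8 monocyte genes, 4 were higher and 0 lower by edgeR, with a median log2 fold change of 0.48. At an unadjusted p under 0.05 the counts were 4 and 2, and with DESeq2 4 and 1. *Ly6c2*, which marks inflammatory monocytes, had 1050 and 1692 counts in WT and 3045 and 2729 in CD4/ALK4-KO (log2 fold change 1.24, SE 0.24, adjusted p = 0.000392). *Vcan*, the most abundant of the 8, had 10613 and 14150 counts in WT and 8881 and 6741 in CD4/ALK4-KO (-0.50, adjusted p = 0.0949). Without WT replicate 1 the count was 1 of 8, and *Ly6c2* was not called, with a log2 fold change of 0.92. For the inflammatory and monocyte lists alike, the part of the rise in T cell RNA was not tested.

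**Figure D4:**
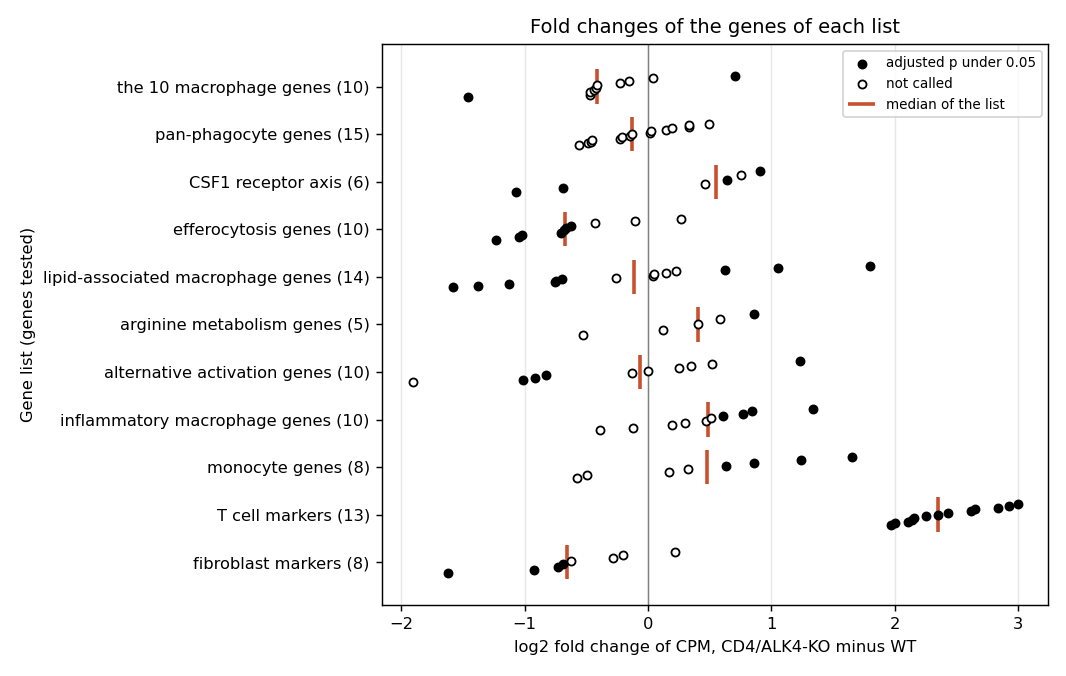
Log2 fold change of CPM, CD4/ALK4-KO minus WT, for each tested gene of 11 lists, filled where the adjusted p was under 0.05 and open otherwise, with the list's median as a bar. The 15 pan-phagocyte genes are all open around -0.13, 7 of 10 genes for the uptake of dying cells are filled and to the left of 0, and the 13 T cell markers are filled and to the right, around 2.35.

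The likeness of other genes to *Csf1r* was measured as the distance between their log2 CPM, centred over the 4 libraries, among the 10450 genes whose counts averaged 100 or more. The nearest were *Limk2* (distance 0.0222), *Fbrsl1* (0.027), *Atxn2l* (0.0533), *Thrap3* (0.0571) and *Klhl18* (0.0677). None of these 5 is on a myeloid list used here, and with 4 libraries many genes can lie this near. *Limk2* had 19.8 and 20.99 CPM in WT and 26.2 and 40.3 CPM in CD4/ALK4-KO, following *Csf1r* also in the gap between the CD4/ALK4-KO libraries. Among the 10 macrophage genes themselves the nearest pair was *Mrc1* and *Arg1*, at a distance of 0.218.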

How the data were processed

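RNA-Seq was measured in 4 libraries, 2 per genotype, grouped by GEO's labels. Libraries were made from total RNA with a kit that does not mark strand. The authors used HISAT2 and mm10 to align single-end reads of 75 bp, assigned them to genes by htseq-count (mode intersection-nonempty) and tested genotype with DESeq2, and they deposited unnormalized counts per gene symbol. FastQC, HISAT2, HTSeq and DESeq2 are named in the submitters' processing notes, and tool versions, annotation and strand option are not given in the sources used here. Reads of overlapping or antisense genes therefore cannot be told apart.

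Counts were tested with edgeR 4.0.16 in R 4.3.3 (filterByExpr, TMM, robust quasi-likelihood fit, genotype as the only term), two-sided, with Benjamini-Hochberg adjustment over all 13919 genes tested and a threshold of 0.05. The SE is the size of the log2 fold change over the root of its F statistic. The common dispersion was 0.0357. CPM use TMM-adjusted library sizes. Replicates differed by more than sampling noise (chi-square per degree of freedom 16.05 in WT and 28.7 in CD4/ALK4-KO) and were kept apart. Lengths and positions are from GENCODE M21 (GRCm38), in which 24321 symbols matched 1 gene. Ratios were tested with a two-sided exact permutation test, adjusted over 15 ratios. The scripts were tested on simulated data.

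The 10 genes and all lists were chosen with earlier results of these data known. The lists are described by counts and medians without a set test. Of each list, the text names the 2 genes with the highest mean count, up to 2 called genes per direction with the largest change and a mean of at least 50 counts, and a few more whose values were seen first (*Cd68*, *Lpl*, *Lipa*, *Hexa*, *Gas6*, *Timd4*, *Stab1* and *Itgav*, and markers in counts of 5 or fewer). A gene that the rule names is not reported here. As alternatives, libraries were scaled by upper quartiles, by the size factors of DESeq2, to *Cd3d*, *Cd3e*, *Cd3g* and *Cd247*, or to 7 phagocyte genes. Others were no low-count filter, a minimum of 10 counts per library, DESeq2 1.42.0, the replicate number as a block, other gene lengths, and each library left out in turn. The pairing of replicate numbers crossed between genotypes, and the length of the longest protein-coding transcript, were added after seeing the data.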

Additional observations from a re-analysis of the deposited data

How the results depend on the processing

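Across 130 refits of the log2 fold changes of the 10 macrophage genes, 107 kept both direction and side of the threshold, 14 passed the threshold newly, 4 lost it and 5 turned direction, and *Spp1* was called lower in all 13 of its refits. The largest shift came from scaling to T cell receptor genes, which moved all genes by a median of -2.35, left 34 genes called higher and 13012 lower, and called 0 of the 10 higher and 10 lower. On that scale *Csf1r* (-1.64), *Gpnmb* (-2.30) and *Acvr1b* (-2.18) turned negative, and the other scalings moved the median of all genes by less than 0.1. Upper quartile scaling called 2 of the 10 lower and turned *Gpnmb* to -0.032. With each library left out in turn, 1103 to 2923 genes were called higher and 754 to 2618 lower, against 2422 and 2140, and 0 to 1 of the 10 were higher and 1 to 3 lower. *Csf1r* lost its call without WT replicate 1, WT replicate 2 or CD4/ALK4-KO replicate 2. *Apoe* ran from -0.82 to 0.13, *Gpnmb* from -0.18 to 0.28 and *Acvr1b* from -0.065 to 0.39 among these fits. The cause of these changes was not tested, except that each of these fits holds fewer samples.

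Whether libraries of the same replicate number were handled together is not given in the sources used here. The correlation of the replicate differences between genotypes was -0.24 over 13919 genes. From 4 libraries, this correlation cannot decide how they were paired. With the replicate number as a block, 1768 genes were called higher and 1444 lower, and 0 of the 10 were higher, as *Csf1r* stood at 0.67 (adjusted p = 0.102, with 1.9e-06 to 0.255 over the alternatives in which it was higher). The crossed pairing, chosen after seeing the data, called 3118 genes higher and 3037 lower, and 3 of the 10 lower. *Nos2*, the gene of lowest count, had the largest SE of the 10, at 0.31.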

Other observations

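Markers of other cells that the fraction could hold were also counted by edgeR, as values without explanation. Over all genes tested, 17.4% were higher and 15.4% lower. Of 6 B cell markers, 6 were higher in CD4/ALK4-KO, with summed levels of 62.0 and 52.6 CPM in WT and 174.3 and 338.1 CPM in CD4/ALK4-KO and a median log2 fold change of 2.47. Of 8 dendritic cell markers, 5 were higher (*Flt3*, *Cd209a*, *Itgax*, *Ccr7* and *Siglech*) and 1 lower (*Clec9a*), with a median of 1.37. *Ccr7*, the largest rise of these at 2.12, is also expressed by T cells, and the part of T cell RNA in it was not tested. *Clec9a* was not called without either WT library or without CD4/ALK4-KO replicate 2. Of 8 neutrophil markers, 2 were higher (*Csf3r* and *Cxcr2*), and their summed level overlapped between the groups, at 948 and 1467 CPM in WT and 1528 and 965.5 CPM in CD4/ALK4-KO.

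Of 8 alveolar macrophage markers, *Siglecf* alone was higher, and it was not called without WT replicate 1, WT replicate 2 or CD4/ALK4-KO replicate 2. Their summed level was 191.2 and 178 CPM in WT and 166.8 and 158.7 CPM in CD4/ALK4-KO. Of 7 endothelial markers, *Pecam1* was higher and *Cldn5* lower, and the median log2 fold change was -0.54. Without *Pecam1*, the other 6 had summed levels of 34.8 and 31.2 CPM in WT and 21.1 and 32.2 CPM in CD4/ALK4-KO, which overlapped. *Cldn5* was called in neither fit that left out a WT library.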
